A study of Mus musculus with 35 samples.

Results

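The genes described here are 10 genes of antigen presentation by MHC class I and of the immunoproteasome, measured by RNA sequencing in bone marrow-derived macrophages (BMDMs). They are the class I heavy chains H2-K1 and H2-D1, their light chain B2m, the peptide transporter genes Tap1 and Tap2, the peptide-loading gene Tapbp, the immunoproteasome subunits Psmb8, Psmb9 and Psmb10, and the class I regulator Nlrc5. They were chosen by symbol, each matched 1 row of the 47069 Ensembl gene rows of the expression files, and all 10 are among the 11354 genes with a mean of at least 1 FPKM (a fragment count divided by gene length and by library size) over the libraries, which were the genes tested. BMDMs are macrophages grown from the marrow of the hind leg bones with medium conditioned by L929 cells, here from C57BL/6 mice labelled wild-type or AMPKa1-/-. The cells of each genotype were exposed for 24 h to vehicle (DMSO), to the synthetic glucocorticoid dexamethasone (Dex, 100 nM), to the bacterial cell wall component lipopolysaccharide (LPS, 100 ng/ml), to LPS + Dex, to damage-associated molecular patterns (DAMPs, 1 µg/ml, whose composition the labels do not give), or to DAMPs + Dex. Each of these 12 groups has 3 libraries, except wild-type LPS, for which replicates 2 and 3 were used and replicate 1 was not analysed here, so that there are 17 wild-type and 18 AMPKa1-/- libraries, 35 in all. Library totals, estimated from the smallest differences among low FPKM values, ranged from 15837203 to 31955298 fragments. The labels do not say which part of the AMPKa1 gene is deleted or in which cells, and the study's methods do not describe these mice. The titles join a replicate number to the genotype, and nothing in them says what a number marks. The study's methods state that replicates are by default cultures from individual mice, without naming these libraries, so the p-values measure the spread between these libraries, which may be partly technical.

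Class I molecules show peptides from inside the cell to CD8 T cells. Proteasomes cut proteins into peptides, the TAP transporter, a pair of the TAP1 and TAP2 proteins, carries them into the endoplasmic reticulum, and tapasin, the product of Tapbp, holds the empty heavy chain with beta-2 microglobulin at the transporter until a peptide fits. In cells exposed to interferon the subunits encoded by Psmb8, Psmb9 and Psmb10 replace the constitutive catalytic subunits encoded by Psmb5, Psmb6 and Psmb7, and NLRC5 is a transactivator that acts at class I promoters through the proteins bound to their W, X and Y boxes.

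Most of these genes lie in the MHC region of chromosome 17, and their promoters share sequence elements. In the annotation used (GENCODE M21, GRCm38), H2-K1 is at chr17:33996017-34000347 on the minus strand and H2-D1 at chr17:35262730-35267499 on the plus strand. Tapbp (chr17:33915899-33929292), Tap1 (chr17:34187553-34197225), Psmb8 (chr17:34197721-34201454) and Tap2 (chr17:34203527-34216321) are on the plus strand, and Psmb9 (chr17:34181987-34187764) is on the minus strand. B2m is on chromosome 2 (chr2:122147686-122153083, plus strand), and Psmb10 (chr8:105935735-105938444, minus strand) and Nlrc5 (chr8:94434356-94527272, plus strand) are on chromosome 8. The RefSeq promoter table (GRCm38.p6, 250 bases before to 50 bases after each start) holds 8 of the 10 genes, not Tap2 or Nlrc5. The stretches below lie before the start given in that table and are written 5′ to 3′ on the strand of the gene. They are shown because both carry a response element type, then TGACG, then ATTGG, in that order. The form of the response element differs, and the kappa B element of the heavy chain genes is in the H2-K1 stretch alone. Capitals mark the kappa B element of the heavy chain genes (the 11 bases at the start of the H2-K1 stretch), the type of the interferon-stimulated response element (GAANNGAAA, or the longer form with GAAA at both ends 2 bases apart), TGACG (the core of the X2 box) and ATTGG (the core of the Y box), each on either strand. The stretches of H2-K1 (chr17:34000359-34000458, minus strand) and B2m (chr2:122147542-122147641, plus strand) read as follows.
H2-K1: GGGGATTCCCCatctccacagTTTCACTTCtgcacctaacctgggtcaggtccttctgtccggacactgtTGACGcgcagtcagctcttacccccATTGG
B2m: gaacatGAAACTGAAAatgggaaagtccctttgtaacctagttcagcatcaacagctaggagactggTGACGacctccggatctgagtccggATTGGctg

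The matching stretch of H2-D1 (chr17:35262923-35263022, plus strand) lies before the start in the promoter table but inside the GENCODE model, which starts further upstream. Aligned without gaps, the H2-K1 and H2-D1 stretches share 89 of 100 bases, and both carry the 4 motifs in the same order. The kappa B element was found in the promoters of these 2 members and in 0.0304% of the 32851 promoters of the table. A wider kappa B form, with GGGA and CC separated by 4 bases, was found in H2-K1, H2-D1 and B2m and in 20.7% of all promoters. GAANNGAAA was found in the same 2 heavy chain genes and in 7.52% of all promoters. The longer response element was found in B2m alone of the 8 and in 3.44% of all promoters. TGACG was found in 5 members (H2-K1, H2-D1, B2m, Tap1 and Psmb9) against 20.8% of all promoters, and ATTGG in 6 (the same 5 and Tapbp) against 37.4%. TTCNNNGAA, the type of the gamma-activated site, was found in Psmb8 alone of the 8 and in 8.30% of all promoters. The starts of Tap1 and Psmb9 in the promoter table have 225 bases between them, whereas their GENCODE models overlap, and the interval's TGACG and ATTGG count as hits for both genes. A match to these letters is a description of the sequence and does not show that a factor was bound.

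The gene named in the genotype label was examined first. Prkaa1, which encodes AMPKa1, was at 15.9, 11.8 and 15.3 FPKM in wild-type vehicle libraries and at 14.8, 16.5 and 15.4 FPKM in the vehicle libraries labelled AMPKa1-/-. Over the other treatments it ran from 8.59 to 26.1 FPKM in wild-type libraries and from 9.05 to 24.0 FPKM in those labelled AMPKa1-/-, and the ranges of the genotypes overlapped in every treatment. A value for the whole gene does not show a deletion of part of it. The genotype is therefore given below as it is labelled.

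The cells carried the RNA of macrophages. Lyz2 was at 10340 to 35910 FPKM, Adgre1 (F4/80) at 474 to 2751 FPKM and Csf1r, the receptor of the growth factor used, at 197 to 684 FPKM over the 35 libraries. Defining genes of lymphocytes and erythroid cells were at or near 0: Cd3e reached 0.0772 FPKM, Cd8a 0.0533 FPKM, Ms4a1 0.0489 FPKM, Ncr1 0.0368 FPKM and Hbb-bs 0.175 FPKM at most. The summed levels of several marker lists differed between treatments. The 7 macrophage markers, led by Lyz2, summed to 20960, 26810 and 21060 FPKM in wild-type vehicle, 17230 and 13980 FPKM in LPS and 27940, 28170 and 31870 FPKM in LPS + Dex, lowest with LPS. For AMPKa1-/- these sums were 32440, 27400 and 21740 FPKM in vehicle, 22880, 21300 and 12950 FPKM in LPS and 39150, 34130 and 27130 FPKM in LPS + Dex. The 5 T cell markers, of which only Cd4 had a mean of at least 1 FPKM, summed to 18.3, 16.1 and 15.8 FPKM in wild-type vehicle, 2.19 and 1.98 FPKM in LPS and 35.2, 22.8 and 29.5 FPKM in DAMPs. Of the 4 B cell markers only Cd22 had such a mean, and their sums were 10.3, 7.56 and 9.60 FPKM in wild-type vehicle and 1.83 and 2.38 FPKM in LPS. Both lymphocyte lists were thus lower with LPS, while the next 3 lists were mostly higher. The 6 neutrophil markers summed to 6.23, 0.352 and 1.42 FPKM in wild-type vehicle, to 133 and 113 FPKM in wild-type LPS, and to 34.9, 32.9 and 52.2 FPKM in wild-type LPS + Dex. In the libraries labelled AMPKa1-/- the same sums were 9.33, 6.14 and 1.12 FPKM for vehicle, 95.1, 97.6 and 118 FPKM for LPS and 27.5, 25.0 and 37.4 FPKM for LPS + Dex. Of these 6 genes 2 had a mean of at least 1 FPKM, Camp was the most abundant, and Ly6g, Mpo and Elane never passed 0.475 FPKM. The 5 dendritic cell markers, led by Itgax, which macrophages also express, summed to 231, 104 and 338 FPKM in wild-type vehicle, 357 and 558 FPKM in LPS and 285, 173 and 325 FPKM in LPS + Dex. Over the 35 libraries Siglech was at most at 0.0625 FPKM, while Ccr7, with a median of 0.037 FPKM, reached 109.9 FPKM. The 3 endothelial markers, led by Kdr, summed to 1.72, 3.27 and 1.90 FPKM in wild-type vehicle and 48.2 and 57.5 FPKM in LPS, while Cdh5 stayed at or below 0.167 FPKM. Some sums also differed with Dex in the absence of LPS. The dendritic cell markers summed to 62.8, 33.2 and 78.0 FPKM in wild-type Dex, and in AMPKa1-/- libraries to 78.9, 107 and 267 FPKM in vehicle and 18.2, 25.3 and 24.6 FPKM in Dex. With DAMPs they summed to 162, 99.3 and 187 FPKM in wild-type and with DAMPs + Dex to 74.1, 27.4 and 79.4 FPKM. The B cell markers summed to 2.34, 1.64 and 1.70 FPKM in wild-type Dex, below every vehicle library. The part of these lists in the results below was not tested. In RNA from whole cultures, more RNA per cell and more cells of a kind cannot be told apart.

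Both heavy chains, and most of all H2-D1, differed between replicate numbers, and this bears on each result for them. H2-D1 was at 3106 to 6488 FPKM in the libraries numbered wild-type 1, at 1886 to 5609 FPKM in wild-type 3 and at 683 to 1420 FPKM in wild-type 2. In the libraries labelled AMPKa1-/- it was at 2454 to 6294 FPKM in number 3 and at 595 to 1406 FPKM in number 2. Number 1 was at 637 to 1627 FPKM in 5 treatments and at 2681 FPKM in DAMPs + Dex. The library labelled AMPKa1-/- DAMPs + Dex replicate 1 thus stood apart from the others of its number, and apart from it the high and the low numbers of each genotype did not overlap for H2-D1. That library's label was taken as given, and neither its identity nor the mouse background of any library was tested. H2-K1 had the same order with more overlap, with medians of 2358, 1048 and 1633 FPKM for wild-type 1, 2 and 3, and of 1108, 869 and 1751 FPKM for AMPKa1-/- 1, 2 and 3.

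When each library was set against its group mean on the log2 scale, the replicate number took up 93.5% of the spread within groups for H2-D1 and 82.9% for H2-K1, against a median of 22.7% over all genes tested. For Tapbp the share was 63.2% and for Tap1 62.0%. For the other 6 members it ran from 20.2% (Psmb8, Nlrc5) to 37.5% (B2m). Over the 35 libraries, the deviations of 30 other genes correlated with those of H2-D1 beyond 0.8 in size, where the median over all genes was 0.171. Of these genes 20, or 66.7%, lie on chromosome 17, which holds 5.22% of the genes tested. They include H2-K1 (Pearson r = 0.97), the ribosomal protein gene Rps18 (0.98), H2-T10 (0.98) and the class II genes H2-DMb1 (0.97) and H2-Ab1 (0.95), and in the opposite direction C4a (-0.90). Gm21188, on chromosome 13, had r = -0.94: it was at or below 0.109 FPKM in every library numbered wild-type 1, wild-type 3 and AMPKa1-/- 3 and at 0 FPKM in AMPKa1-/- DAMPs + Dex replicate 1, and at 5.91 FPKM or more in the other libraries. These genes were picked after their values were seen. They share libraries and depth, so the correlations describe these libraries. Since the high and low numbers are spread unevenly over the genotypes, 2 of 3 high in wild-type and 1 of 3 in AMPKa1-/-, a genotype difference in a heavy chain cannot be told apart from this pattern. H2-K1 and H2-D1 are also close relatives with other class I genes, so that fragments may be shared between them, and their values are uncertain for that reason too.

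**Figure D1:**
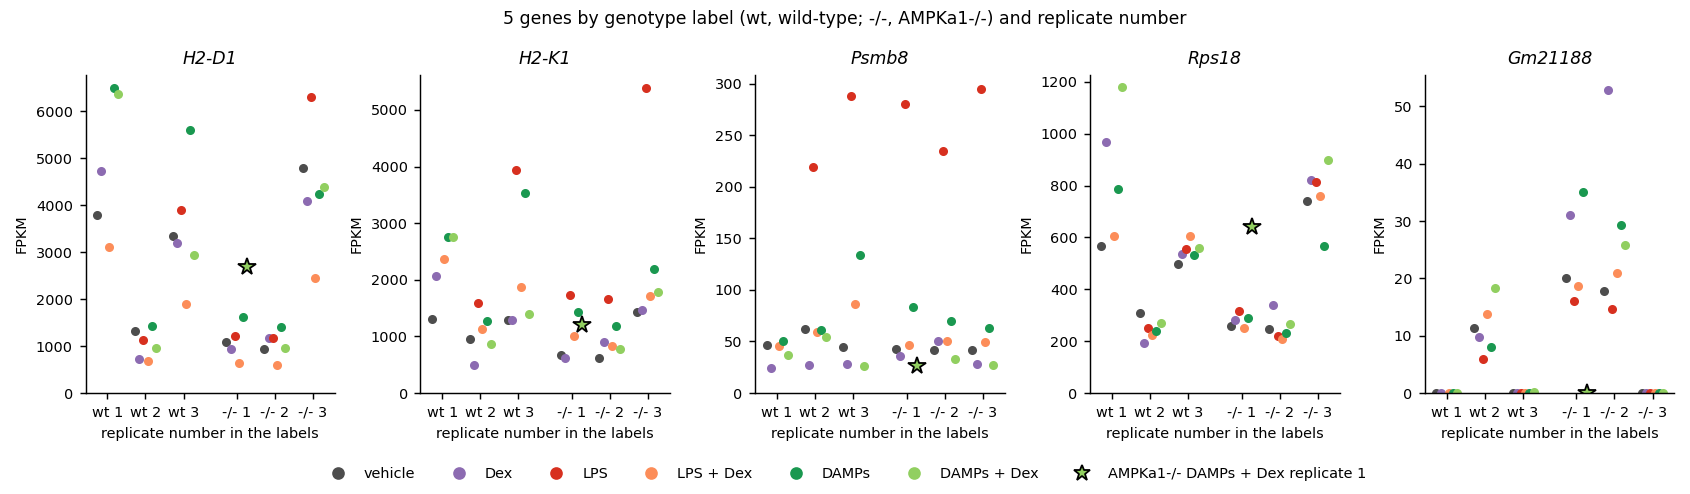
FPKM of H2-D1, H2-K1, Psmb8, Rps18 and Gm21188 (y axes, linear from 0) by genotype and replicate number (x axes), 1 point per library coloured by treatment. H2-D1, H2-K1 and Rps18 were high and Gm21188 near 0 in the libraries numbered wild-type 1, wild-type 3 and AMPKa1-/- 3, the star marks AMPKa1-/- DAMPs + Dex replicate 1 (2681 FPKM for H2-D1), and Psmb8 followed treatment instead.

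B2m had the highest mean level of the members over all libraries, 3837 FPKM, followed by H2-D1 (2636 FPKM) and H2-K1 (1642 FPKM), all at or above the 99.7th percentile of the genes tested. Tapbp was at 330 FPKM, Psmb10 at 127 FPKM, Psmb9 at 80.5 FPKM and Psmb8 at 79.8 FPKM. Tap1 and Tap2, at 45.4 and 39.6 FPKM, were lower, and Nlrc5, at 11.5 FPKM, was lowest. For each of the 8 members other than the heavy chains the highest group means were the 2 LPS groups, followed by the 2 DAMPs groups. The ranges of the 2 LPS groups overlapped for 7 of these 8 and did not for Nlrc5, while the 2 DAMPs groups overlapped for all 8. Of all genes tested, 30.2% did not overlap between the 2 LPS groups and 11.6% between the 2 DAMPs groups. Below them the order of the groups differed from gene to gene and neighbours mostly overlapped. Wild-type Dex was the lowest group for B2m, Tap2, Tapbp, Psmb8, Psmb9 and Psmb10, and AMPKa1-/- LPS + Dex was lowest for Tap1 and Nlrc5. Neither overlapped with its next group, wild-type LPS + Dex for Tap1 and AMPKa1-/- Dex for Nlrc5. The share of all genes not overlapping between these groups was not counted.

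**Figure D2:**
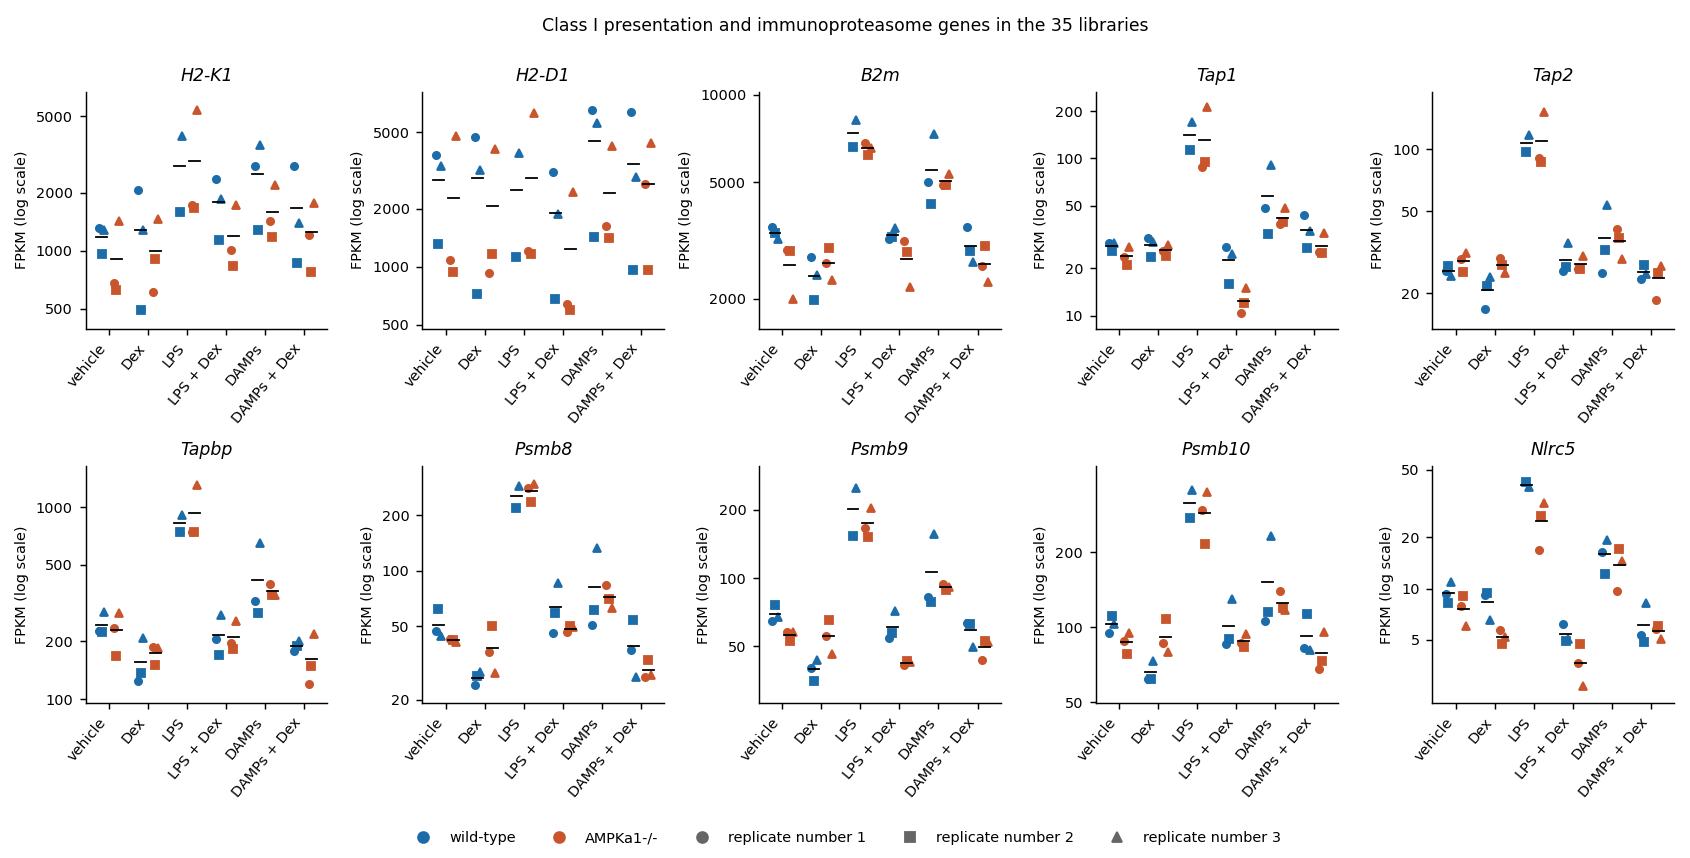
FPKM of the 10 genes (y axes, log scale) in each of the 35 libraries by treatment (x axes), coloured by genotype, with the marker shape giving the replicate number and a black line at the group mean. In both genotypes every LPS library was above all others for Tap1, Tap2, Tapbp, Psmb8 and Psmb10, while 1 DAMPs library overlapped with LPS for B2m and Psmb9 (wild-type) and for Nlrc5 (AMPKa1-/-), and the LPS + Dex libraries lay near or below vehicle, while H2-K1 and H2-D1 were split by replicate number.

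In the first comparison, LPS against vehicle, the light chain, the transporter, tapasin, the 3 immunoproteasome subunits and Nlrc5 rose in both genotypes. In wild-type BMDMs 8 of the 10 members rose, where 19.9% of all genes tested did so, with a median log2 change of 1.67 over the 10 members against -0.19 over all genes. In the libraries labelled AMPKa1-/- 9 of 10 rose, against 20.2% of all genes, with a median of 1.65 against -0.30. When the libraries were centred on one median the all-gene medians became -0.04 and -0.02 and the members' medians 1.82 and 1.92. The comparisons below are all on log2(FPKM + 1), which understates changes of weak genes, and adjusted p-values are from limma over all genes tested. Where vehicle libraries are said not to overlap with those of a treatment, the share of all genes doing so was not counted.

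Psmb8, the subunit that takes the place of Psmb5, was at 47.0, 62.0 and 44.3 FPKM in wild-type vehicle and at 219 and 288 FPKM in LPS. In the libraries labelled AMPKa1-/- it was at 42.9, 42.1 and 41.2 FPKM in vehicle and at 280, 235 and 295 FPKM in LPS. Every LPS library was above every vehicle library, and the log2 changes were 2.29 ± 0.30 (SE; adjusted p = 1.86e-07) and 2.65 ± 0.26 (adjusted p = 1.28e-09). Psmb9 was at 65.0, 76.2 and 67.7 FPKM in wild-type vehicle and at 153 and 250 FPKM in LPS. It rose by 1.48 ± 0.21 on the log2 scale in wild-type and by 1.61 ± 0.19 in AMPKa1-/- libraries, where it went from 58.1, 52.7 and 58.1 FPKM to 167, 152 and 205 FPKM. Psmb10 went from 94.5, 111 and 103 FPKM to 275 and 355 FPKM in wild-type, a log2 change of 1.60 ± 0.24, and by 1.69 ± 0.22 in AMPKa1-/- libraries. Again the vehicle and LPS libraries did not overlap in either genotype, with no count over all genes.

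Tap1, which encodes a chain of the peptide transporter, was at 29.1, 25.7 and 28.9 FPKM in wild-type vehicle and at 113 and 171 FPKM in LPS, a log2 change of 2.28 ± 0.32 (adjusted p = 7.98e-07). The AMPKa1-/- values were 23.6, 20.9 and 27.4 FPKM in vehicle and at 87.6, 94.7 and 212 FPKM in LPS, a change of 2.30 ± 0.29. Replicate 3 gave the highest LPS value in both genotypes. The models of Tap1 and Psmb9 overlap on opposite strands and the strand setting of the counting is not given in the sources used here, so that reads from the overlap cannot be told apart. Tap2, its partner, went from 25.5, 27.1 and 24.3 FPKM to 97.1 and 118 FPKM in wild-type and from 29.2, 25.2 and 31.2 FPKM to 90.8, 86.6 and 153 FPKM in AMPKa1-/- libraries, changes of 2.02 ± 0.23 and 1.87 ± 0.21. Tapbp went from 227, 223 and 284 FPKM to 740 and 908 FPKM in wild-type (1.75 ± 0.30) and rose by 1.998 ± 0.27 in AMPKa1-/- libraries. For all 3 genes the LPS libraries lay above the vehicle libraries, which was not counted over all genes.

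Nlrc5 was at 9.29, 8.19 and 10.9 FPKM in wild-type vehicle and at 42.2 and 39.6 FPKM in LPS, a change of 2.01 ± 0.25 (adjusted p = 7.45e-08). The AMPKa1-/- values were 7.87, 8.99 and 6.01 FPKM in vehicle and at 16.9, 26.7 and 31.9 FPKM in LPS, a change of 1.57 ± 0.22 (adjusted p = 5.34e-07). The light chain gene B2m, abundant in vehicle at 3521, 3347 and 3207 FPKM in wild-type, was at 6599 and 8187 FPKM in LPS, a smaller log2 change of 1.13 ± 0.20 (adjusted p = 2.93e-05). Among AMPKa1-/- libraries it went from 2946, 2909 and 1993 FPKM to 6826, 6217 and 6576 FPKM (1.34 ± 0.18).

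The heavy chains gave less certain values. H2-K1 was at 1309, 959 and 1287 FPKM in wild-type vehicle and at 1583 and 3948 FPKM in LPS, a log2 change of 1.09 ± 0.60 that did not pass (adjusted p = 0.127). Wild-type LPS lacks number 1, in which both heavy chains were high. H2-K1 passed there with the replicate number as a block, although same-numbered wild-type libraries were not taken as pairs. With AMPKa1-/- it was at 676, 622 and 1425 FPKM in vehicle and at 1735, 1667 and 5381 FPKM in LPS, and it rose by 1.57 ± 0.54 (adjusted p = 0.0128). The vehicle and LPS libraries did not overlap in either genotype, which was not counted over all genes. By limma 59.8% of all genes in wild-type and 67.4% in AMPKa1-/- had an unadjusted p under 0.05. The call for H2-K1 in AMPKa1-/- was lost without LPS replicate 3 (log2 change 1.01) or vehicle replicate 2 (1.35). H2-D1 changed by -0.29 ± 1.01 in wild-type and by 0.29 ± 0.90 in AMPKa1-/- libraries, with neither past the threshold and standard errors wide enough to hold changes of either sign. Its AMPKa1-/- values were 1086, 934 and 4788 FPKM in vehicle and 1208, 1170 and 6294 FPKM in LPS, so that number by number the LPS library was above the vehicle library in 3 of 3 pairs. The share of all genes higher with LPS in every pair was not counted. With the replicate number as a block the number of members called for AMPKa1-/- stayed at 9.

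The second comparison, LPS + Dex against LPS, asked how the glucocorticoid acts on cells exposed to LPS. In wild-type the 8 members other than the heavy chains fell, where 17.5% of all genes tested fell, with a median over the 10 members of -1.77 against -0.03 over all genes. For AMPKa1-/- 8 of 10 fell, against 18.4% of all genes, with a median of -1.96 against 0.01. These comparisons share their LPS libraries with those against vehicle.

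Nlrc5 was at 6.23, 4.94 and 5.04 FPKM in wild-type LPS + Dex, against 42.2 and 39.6 FPKM in LPS, and fell by 2.71 ± 0.25 on the log2 scale (adjusted p = 8.94e-10). It was at 3.63, 4.69 and 2.65 FPKM in AMPKa1-/- LPS + Dex and fell by 2.47 ± 0.22. This was the largest fall of a member in wild-type. Tap1, at 27.5, 15.9 and 24.8 FPKM in wild-type LPS + Dex, fell by 2.59 ± 0.32 (adjusted p = 2.29e-07). Tap1 was at 10.4, 11.99 and 14.9 FPKM in AMPKa1-/- libraries and fell by 3.20 ± 0.29 (adjusted p = 4.91e-10), the largest fall of a member there. Psmb8 was at 45.9, 59.2 and 86.0 FPKM in wild-type LPS + Dex and fell by 2.01 ± 0.30, and was at 46.3, 50.1 and 49.4 FPKM in AMPKa1-/- libraries, where it fell by 2.44 ± 0.26. For Nlrc5, Tap1 and Psmb8 no LPS + Dex library reached any LPS library of its genotype.

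Psmb9 fell by 1.68 ± 0.21 in wild-type, to 54.3, 57.2 and 71.8 FPKM, and by 2.01 ± 0.19 in AMPKa1-/- libraries, to 41.5, 43.1 and 42.6 FPKM. Psmb10 fell by 1.64 ± 0.24 and 1.67 ± 0.22, to 85.3, 89.8 and 130 FPKM in wild-type. Tap2 fell by 1.85 ± 0.23 and 1.91 ± 0.21 and Tapbp by 1.95 ± 0.30 and 2.09 ± 0.27, in wild-type and AMPKa1-/- respectively. B2m had the smallest fall of the 8, by 1.15 ± 0.20 in wild-type, to 3200, 3242 and 3493 FPKM, and by 1.27 ± 0.18 in AMPKa1-/- libraries, to 3148, 2882 and 2190 FPKM. All 8 genes were lower than LPS without overlap in both genotypes, as were 24.4% (wild-type) and 22.4% (AMPKa1-/-) of all genes tested.

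H2-K1 had a log2 change of -0.55 ± 0.60 in wild-type (2358, 1137 and 1866 FPKM in LPS + Dex) and of -1.14 ± 0.54 in AMPKa1-/- libraries (1008, 837 and 1721 FPKM), neither past the threshold. H2-D1 was at 3106, 683 and 1886 FPKM in wild-type LPS + Dex and at 637, 595 and 2454 FPKM in AMPKa1-/- LPS + Dex, with changes of -0.40 ± 1.01 and -1.08 ± 0.90. The wild-type LPS group lacks number 1, in which both heavy chains were high. With the replicate number as a block both passed as lower in wild-type, although same-numbered wild-type libraries were not taken as pairs. Among AMPKa1-/- libraries the deviations of same-numbered libraries correlated, at 0.36 to 0.38 for this comparison, and with the replicate number as a block both heavy chains fell, H2-K1 by 1.14 (adjusted p = 5.81e-04) and H2-D1 by 1.08 (adjusted p = 0.00141). All 10 members fell in that fit, where 19.4% of all genes did.

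Set against vehicle, LPS + Dex gave few calls among the members. In wild-type Nlrc5 alone of the 10 passed, with a fall of 0.71 ± 0.22 (adjusted p = 0.00824) where 37.0% of all genes fell. This call was lost with quantile normalization, at -0.42. Among AMPKa1-/- libraries Nlrc5 fell by 0.90 ± 0.22 and Tap1 by 0.90 ± 0.29, 2 of 10 members against 40.8% of all genes. For both, every LPS + Dex library was below every vehicle library, which was not counted over all genes. Without a call, Psmb9 was also below every vehicle library, with a ratio of group means of 0.753. Psmb8, also not called, was above every vehicle library (1.155). The call for Tap1 was lost with the libraries centred on one median (-0.61) and with quantile normalization (-0.63). With the replicate number as a block H2-D1 fell there as well, by 0.79 (adjusted p = 0.0105), with 3 members lower where 41.9% of all genes were. The other members' log2 changes ran from -0.69 (H2-D1) to 0.54 (H2-K1) in wild-type and from -0.79 (H2-D1) to 0.43 (H2-K1) in AMPKa1-/- libraries. Over all genes the medians were -0.23 and -0.28, and centring on one median moved them to -0.005 and 0.01 and the members' medians from -0.12 to 0.11 and from -0.07 to 0.22. The sign of the members' median thus depended on this scaling, which shifted the members much as it shifted all genes. No direction is drawn from it.

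**Figure D3:**
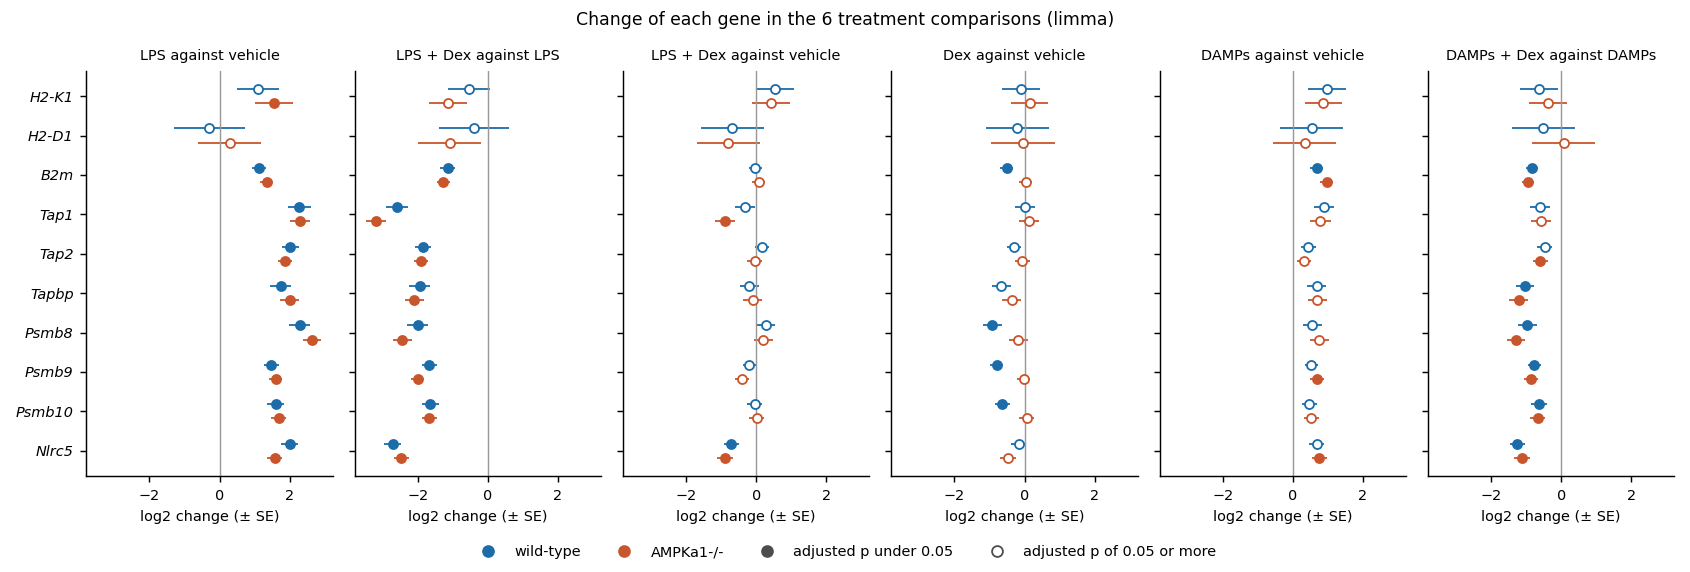
Log2 change with its standard error (x axes) of each of the 10 genes (y axis) in 6 comparisons, wild-type in blue and AMPKa1-/- in orange, filled where the adjusted p was under 0.05. LPS against vehicle and LPS + Dex against LPS lie on opposite sides of 0 for all genes but H2-D1 in wild-type, LPS + Dex against vehicle was called for Nlrc5 in both genotypes and Tap1 in AMPKa1-/- alone, and the standard errors of H2-K1 and H2-D1 are the widest.

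Dex without LPS lowered part of the set in wild-type BMDMs. B2m, Psmb8, Psmb9 and Psmb10 fell, 4 of 10 members where 14.9% of all genes fell. Psmb9 was at 40.4, 35.2 and 43.5 FPKM in wild-type Dex against 65.0, 76.2 and 67.7 FPKM in vehicle, a fall of 0.80 ± 0.19 (adjusted p = 0.00222). Psmb8 was at 24.1, 26.8 and 28.2 FPKM in wild-type Dex and fell by 0.92 ± 0.26 (adjusted p = 0.00952), and Psmb10, at 62.1, 62.2 and 73.5 FPKM, fell by 0.63 ± 0.22 (adjusted p = 0.0281). B2m, at 2773, 1972 and 2409 FPKM, fell by 0.51 ± 0.18 (adjusted p = 0.0356). Each of the 4 was below vehicle in every wild-type Dex library, a separation that was not counted over all genes tested. Tap1, in contrast, was at 31.3, 23.6 and 29.4 FPKM, with a change of 0.00 ± 0.29. Tapbp, at 125, 137 and 210 FPKM in wild-type Dex, was also below every vehicle library, with a change of -0.66 ± 0.27 that did not pass (adjusted p = 0.0616). Without wild-type vehicle replicate 2 only Psmb9 of the 4 stayed past the threshold, and without vehicle replicate 3 or Dex replicate 2 only Psmb8 and Psmb9 did. For AMPKa1-/- none of the 10 passed, where 27.9% of all genes changed in either direction, and 1 of 10 had an unadjusted p under 0.05, as did 38.1% of all genes. Psmb9 was at 55.8, 65.1 and 46.3 FPKM in AMPKa1-/- Dex (log2 change -0.03 ± 0.19) and Psmb8 at 36.1, 50.2 and 27.9 FPKM (-0.18 ± 0.26).

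The difference between genotypes in the response to Dex alone did not pass for any member. It was 0.77 ± 0.27 for Psmb9 (adjusted p = 0.194), 0.74 ± 0.37 for Psmb8 (0.24), 0.69 ± 0.31 for Psmb10 (0.208) and 0.54 ± 0.26 for B2m (0.228). By limma no gene of the 11354 passed in this comparison, which was added after the data were seen, although 2441 had an unadjusted p under 0.05, among them 3 members. With the libraries centred on one median 4 genes passed, 1 higher and 3 lower.

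The action of Dex on these genes depended on whether LPS was present. The change with Dex in the presence of LPS minus the change without it was past the threshold and negative for 7 of 10 members in wild-type, against 17.1% of all genes, and for 8 of 10 in AMPKa1-/- libraries, against 12.8%. Tap1 had the largest difference in both, -2.60 ± 0.43 in wild-type and -3.32 ± 0.41 in AMPKa1-/- libraries. Nlrc5 followed in wild-type at -2.55 ± 0.33. In wild-type the count fell to 3 members (Tap1, Tap2 and Nlrc5) without LPS replicate 3, and to 3 with the libraries centred on one median. In AMPKa1-/- libraries it was 8 in each of those settings and 10 with the replicate number as a block, where 13.7% of all genes passed as lower.

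Fewer members passed with DAMPs than with LPS. B2m was at 5029, 4219 and 7332 FPKM in wild-type DAMPs, above every vehicle library. It alone of the 10 passed in wild-type, rising by 0.68 ± 0.18 (adjusted p = 0.0469) where 1.22% of all genes rose. The call was close to the threshold and was lost without any vehicle library, without DAMPs replicate 1 or without DAMPs replicate 3 (0.46), and without single libraries of other groups, which enter only through the shared spread. With AMPKa1-/-, where DAMPs libraries were at 4911, 4906 and 5336 FPKM, B2m rose by 0.97 ± 0.18 (adjusted p = 0.00147), Psmb9 by 0.69 ± 0.19 (adjusted p = 0.0349) and Nlrc5 by 0.75 ± 0.22 (adjusted p = 0.0485), 3 members where 1.89% of all genes rose. There Psmb9 was lost without any of the 6 vehicle and DAMPs libraries and Nlrc5 without any of them but DAMPs replicate 1, as well as without many single libraries of other groups, while B2m was kept. The median over the members was 0.62 in wild-type and 0.73 in AMPKa1-/-, against -0.03 and -0.07 over all genes. Replicate 3 was the highest of the wild-type DAMPs libraries for 9 members, all but H2-D1. Tap1 was at 48.6, 33.0 and 90.9 FPKM in these libraries and Psmb8 at 50.6, 61.4 and 133 FPKM. Set directly against each other, LPS was above DAMPs for 7 members in wild-type (Tap1, Tap2, Tapbp, the 3 immunoproteasome subunits and Nlrc5), against 20.7% of all genes, by 0.96 ± 0.21 (Psmb9) to 1.74 ± 0.30 (Psmb8). For AMPKa1-/- LPS was also above DAMPs for these 7, where 2496 of the 11354 genes were higher, by 0.82 ± 0.22 (Nlrc5) to 1.89 ± 0.26 (Psmb8). Without wild-type LPS replicate 3, Tapbp and Psmb9 no longer passed in wild-type and 5 members did. B2m differed by 0.45 ± 0.20 and 0.37 ± 0.18 and did not pass. The direct comparison of LPS and DAMPs was added after the data were seen.

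Dex added to DAMPs lowered 6 members in wild-type (B2m, Tapbp, Psmb8, Psmb9, Psmb10 and Nlrc5), where 12.6% of all genes fell, and the same 6 and Tap2 in AMPKa1-/- libraries, where 12.2% fell. Nlrc5 was at 5.36, 4.87 and 8.19 FPKM in wild-type DAMPs + Dex against 16.4, 12.2 and 19.3 FPKM in DAMPs, a fall of 1.25 ± 0.22 (adjusted p = 7.30e-05), and fell by 1.12 ± 0.22 in AMPKa1-/- libraries. B2m fell by 0.84 ± 0.18 and 0.95 ± 0.18. Psmb8 was at 37.2, 53.9 and 26.6 FPKM in wild-type DAMPs + Dex (a fall of 0.97 ± 0.26) and at 26.4, 32.7 and 27.4 FPKM in AMPKa1-/- DAMPs + Dex against 83.5, 70.3 and 63.0 FPKM in DAMPs (1.29 ± 0.26). In wild-type the count fell to 2 without DAMPs replicate 3, when B2m and Nlrc5 passed. In AMPKa1-/- libraries it fell to 5, without Tap2 and Psmb10, when DAMPs + Dex replicate 1 or 2 or DAMPs replicate 1 was left out. The first of these is the library that stood apart for H2-D1. Without DAMPs + Dex replicate 1 the change of H2-D1 went from 0.07 to -0.05 and that of H2-K1 from -0.38 to -0.39, none past the threshold.

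Compared directly within each treatment, the genotypes gave 1 call among these genes. With vehicle, LPS, LPS + Dex, DAMPs and DAMPs + Dex none of the 10 passed, and of all genes 0.432%, 0.766%, 0.669%, 0.731% and 1.06% did. At an unadjusted p under 0.05 there were 1, 1, 3, 0 and 0 members, against 6.17%, 11.4%, 8.11%, 7.57% and 9.40% of all genes. Tap1 in LPS + Dex was at 10.4 to 14.9 FPKM in AMPKa1-/- and 15.9 to 27.5 FPKM in wild-type libraries, a difference of -0.80 ± 0.29 (adjusted p = 0.307). Nlrc5 in LPS was at 16.9 to 31.9 FPKM and 39.6 to 42.2 FPKM (-0.72 ± 0.25, adjusted p = 0.212). For neither did the genotypes overlap. Of all genes tested, 30.2% did not overlap between the 2 LPS groups, and the share for LPS + Dex was not counted. Tap1 also followed the replicate number (its deviations correlated with those of H2-D1 at 0.79), so its genotype difference cannot be told apart from that pattern. With Dex, where 26.5% of all genes differed in either direction and 15.5% were lower in AMPKa1-/- libraries, Nlrc5 alone passed (3 members, and 42.1% of all genes, had an unadjusted p under 0.05), lower by 0.59 ± 0.22 (5.68, 4.70 and 5.18 FPKM against 9.15, 9.48 and 6.53 FPKM in wild-type; adjusted p = 0.0485). That call was lost without any AMPKa1-/- Dex library, without wild-type Dex replicate 1 (-0.53) or 2 (-0.50), and with the libraries centred on one median (-0.43). The differences between genotypes in the response to LPS ran from -0.44 ± 0.33 (Nlrc5) to 0.58 ± 1.35 (H2-D1), those in LPS + Dex against LPS from -0.68 ± 1.35 (H2-D1) to 0.25 ± 0.33 (Nlrc5), and those in the response to DAMPs from -0.21 ± 1.27 (H2-D1) to 0.29 ± 0.26 (B2m). By limma no gene passed in any of these 3 comparisons, with 514, 311 and 66 genes, and none of the members, at an unadjusted p under 0.05.

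The balance of each immunoproteasome subunit with the constitutive subunit it replaces, as the ratio of their FPKM, was higher on average with LPS than with vehicle in both genotypes. Psmb8 was above Psmb5 in every vehicle library, at 1.66 to 2.21 times in wild-type and 1.42 to 1.51 times in AMPKa1-/-. With LPS the ratio was 3.14 and 3.85 in wild-type and 2.62, 2.91 and 3.91 in AMPKa1-/- libraries. With LPS + Dex it was 1.02 to 1.14 and 0.506 to 0.954, below every vehicle library of the genotype. Psmb9 stayed below Psmb6 in every library, with a ratio of 0.282 to 0.315 in wild-type vehicle, 0.443 and 0.655 in LPS and 0.282 to 0.322 in LPS + Dex. Psmb10 over Psmb7 was 2.60 to 3.08 in wild-type vehicle, 3.98 and 4.09 in LPS and 1.66 to 2.57 in LPS + Dex. For AMPKa1-/- it was 1.997 to 2.84 in vehicle and 2.69 to 4.88 in LPS, which overlap. With DAMPs the mean ratios were above vehicle as well. Psmb8 over Psmb5 was 2.33, 2.37 and 4.69 in wild-type DAMPs, the last the highest of all libraries, and 2.36 to 2.95 in AMPKa1-/- DAMPs. The group means of Psmb10 over Psmb7 were 4.23 and 3.72 with DAMPs against 4.03 and 3.49 with LPS, and that of Psmb9 over Psmb6 in AMPKa1-/- libraries was 0.447 against 0.395. In wild-type DAMPs the values of Psmb10 over Psmb7 were 2.947, 3.492 and 6.255, and their median of 3.492 was below both wild-type LPS values. With Dex alone in wild-type, where Psmb9 fell, Psmb9 over Psmb6 was 0.307 to 0.318, within the range of vehicle or just above it, as Psmb6 fell too. These ratios are given as a description and were not tested.

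**Figure D4:**
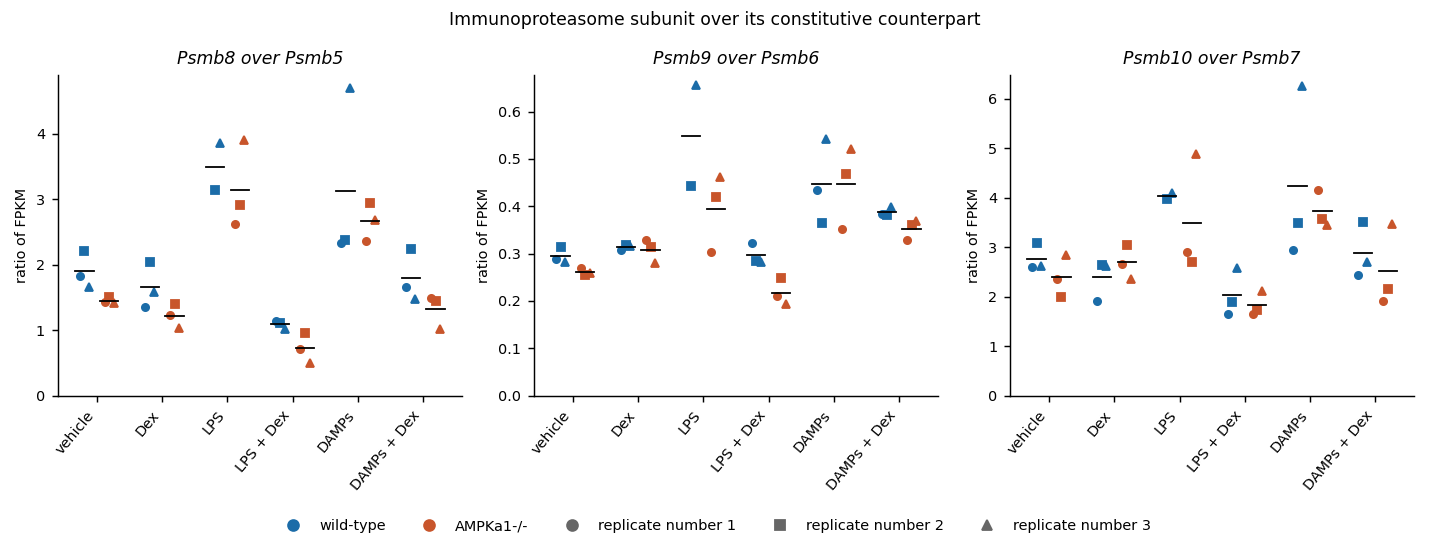
Ratio of the FPKM of each immunoproteasome subunit to that of its constitutive counterpart (y axes, linear from 0) in each library by treatment (x axes), coloured by genotype, shapes by replicate number, with a black line at the group mean. Psmb8 over Psmb5 was 2.62 to 3.91 with LPS and 0.506 to 1.14 with LPS + Dex, against 1.42 to 2.21 with vehicle.

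Most of the rest of the proteasome rose with LPS, where 19.9% (wild-type) and 20.2% (AMPKa1-/-) of all genes did. The constitutive catalytic subunits rose, 3 of 3 in both genotypes, with log2 changes in wild-type of 1.39 ± 0.25 for Psmb5, 0.62 ± 0.19 for Psmb6 and 1.04 ± 0.13 for Psmb7. All 11 other subunits of the 20S core rose in wild-type (median 0.91), led by Psma6, from a group mean of 206 to 1094 FPKM, a change of 2.40 ± 0.11. Psma5 rose by 1.29 ± 0.13 and Psmb4 by 1.13 ± 0.15. Of the 17 subunits of the 19S regulator, which unfolds ubiquitinated proteins, 16 rose in wild-type and 17 in AMPKa1-/- libraries (medians 0.69 and 0.78), among them Psmd11 (1.17 ± 0.10), Psmc5 (0.94 ± 0.16) and Psmd14 (0.92 ± 0.11). With LPS + Dex against LPS, 2 of the 3 constitutive catalytic subunits fell in wild-type (Psmb6 and Psmb7, with Psmb5 at -0.34 ± 0.25), 8 of the 11 core subunits (median -0.57) and 16 of the 17 regulator subunits (median -0.53), where 17.5% of all genes fell. Centred on one median, 4 core and 6 regulator subunits passed, with medians of -0.49 and -0.45. Without centring the counts in AMPKa1-/- libraries were 2, 8 and 16, where 18.4% of all genes fell.

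Psme1 and Psme2 encode the PA28 activator that opens the proteasome and is induced by interferon, and they moved like the members. Psme2 rose from a mean of 278 to 2078 FPKM in wild-type, a change of 2.90 ± 0.24, and Psme1 from 211 to 605 FPKM, a change of 1.501 ± 0.23. With LPS + Dex they fell by 1.99 ± 0.24 and 2.03 ± 0.23. Psme3, whose product is a nuclear activator, rose by 0.51 ± 0.13 with LPS and had a change of -0.21 ± 0.13 with LPS + Dex that did not pass. Psme4 had changes of 0.33 ± 0.21 and -0.24 ± 0.21, neither past the threshold. Of the 5 assembly chaperones, Pomp, which is needed to build immunoproteasomes, rose by 0.62 ± 0.14 with LPS and fell by 0.61 ± 0.14 with LPS + Dex. Psmg3 rose by 0.47 ± 0.20 and Psmg1, Psmg2 and Psmg4 did not pass (0.10, -0.04 and -0.14).

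Outside the proteasome, 14 of 17 listed class I relatives were measured, and 8 rose and 1 fell with LPS in wild-type (median 2.10), where 19.9% of all genes rose and 35.8% fell. H2-M2 rose from a mean of 4.59 to 84.6 FPKM, a change of 3.97 ± 0.42, H2-T22 from 38.8 to 470 FPKM (3.58 ± 0.32) and H2-T10 from 5.92 to 57.1 FPKM (3.07 ± 0.89). Cd1d1, which presents lipids, was the one that fell. With LPS + Dex 8 fell and none rose (median -2.29), where 17.5% of all genes fell and 16.6% rose, H2-T22 by 3.48 ± 0.32, H2-M2 by 3.28 ± 0.42 and H2-T10 by 2.45 ± 0.89. H2-T10 and H2-Q7 are among the genes that followed the replicate number with H2-D1, and fragments of these relatives may be shared among them. Of the 8 genes for loading and trimming in the endoplasmic reticulum, 5 rose with LPS (median 0.80), and 3 fell and 1 rose with LPS + Dex (median -0.19), against the same shares of all genes. The trimming peptidase Erap1 rose by 1.23 ± 0.30 and fell by 1.40 ± 0.30, Tapbpl rose by 1.07 ± 0.18 and fell by 0.97 ± 0.18, and the chaperone Calr rose by 1.27 ± 0.20 but had a change of -0.29 ± 0.20 with LPS + Dex. Of the 7 cytosolic peptidases, which destroy or trim peptides, 2 rose with LPS (median 0.44), a share near the 19.9% of all genes, Lap3 by 1.08 ± 0.12 and Nrd1 by 0.71 ± 0.13. With LPS + Dex these 2 fell, by 1.14 ± 0.12 and 0.53 ± 0.13, and Npepps rose by 0.71 ± 0.12.

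Of the 18 transcription factors of the class I and interferon response, 6 rose and 5 fell with LPS in wild-type (median 0.08), where 19.9% of all genes tested rose and 35.8% fell. With LPS + Dex against LPS 1 rose and 8 fell (median -0.46), where 16.6% of all genes rose and 17.5% fell. Irf7, a main transcription factor of the interferon response, rose from a mean of 89.7 to 2025 FPKM (4.50 ± 0.52) and fell to 98.8 FPKM with LPS + Dex (by 4.46 ± 0.52). Ciita, the class II counterpart of Nlrc5, went the other way with LPS: it fell by 2.53 ± 0.22, from 6.18 to 0.203 FPKM. Ciita also fell with Dex alone, by 2.62 ± 0.20 in wild-type and 3.34 ± 0.20 in AMPKa1-/- libraries. There the mean of Nlrc5 was lower too, without a call, from 9.47 to 8.39 FPKM in wild-type and from 7.62 to 5.19 FPKM in AMPKa1-/- libraries. With Dex alone in wild-type the 3 constitutive catalytic subunits all fell (median -0.70), as did 8 of the 11 other core subunits (median -0.41), where 14.9% of all genes fell. None of these 14 genes passed in AMPKa1-/- libraries, where 27.9% of all genes changed in either direction. With the replicate number as a block Psmb1 was higher there (0.32, adjusted p = 0.0458). The difference between the genotypes passed for none of the 14.

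**Figure D5:**
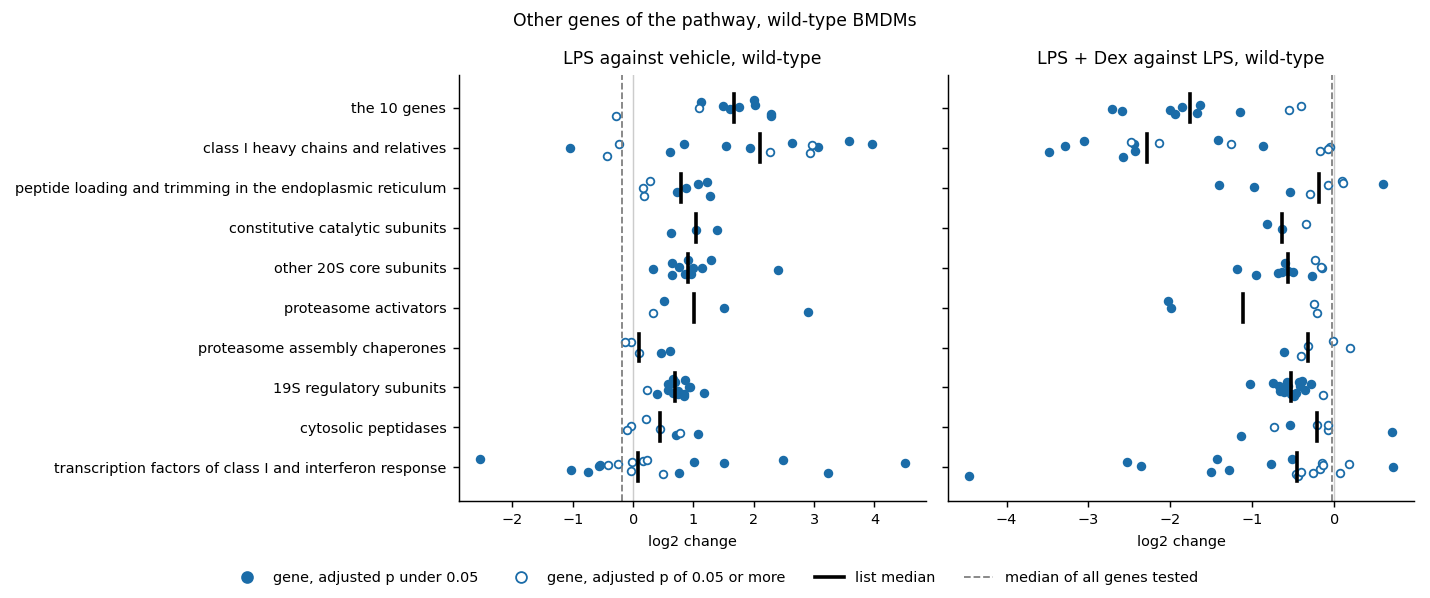
Log2 change in wild-type BMDMs (x axes) of each measured gene of the 10 lists (y axis), filled where the adjusted p was under 0.05, with the list median as a black bar and the median of all genes tested as a dashed line. The median of the 10 genes was 1.67 with LPS and -1.77 with LPS + Dex against LPS, beyond those of every other list but the class I relatives (2.10 and -2.29).

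The 5 genes outside the members whose group means over the 12 groups were most like the members' mean profile were Slfn1 (Pearson r = 0.990), Ifi204 (0.986), Tgtp2 (0.985), Mx1 (0.984) and Phf11d (0.983). Slfn1 was at a mean of 2.11 FPKM in wild-type vehicle, 177 FPKM in LPS, 2.37 FPKM in LPS + Dex and 29.0 FPKM in DAMPs. Mx1, an antiviral GTPase, was at 4.99, 161, 1.39 and 20.0 FPKM in the same groups. Among the members themselves the likeness to that profile ran from 0.928 (Tap2) to 0.988 (Psmb9) for the 8 genes other than the heavy chains, and was 0.889 for H2-K1 and 0.403 for H2-D1. Each member is part of the mean it is set against, so these values are not comparable with those of the genes outside. The groups share libraries with the comparisons above, so these correlations describe the data and carry no test.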

How the data were processed

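RNA was extracted with TRIzol and 35 libraries of BMDM cultures were sequenced by Novogene. The authors deposited 1 FPKM value per gene and library; the submitters' processing notes list TopHat2 2.0.12, Bowtie2 2.2.3, HTSeq 0.6.1 and DESeq2 with GRCm38 (mm10). FPKM were not counts, and whole fragments came back within 0.001 for only 55.5% to 63.9% of weak values, so no count test was run. Genes with a mean of at least 1 FPKM were tested on log2(FPKM + 1) with limma 3.58.1 (R 4.3.3; trend, 2-sided, 12 groups fitted together), with Benjamini-Hochberg adjustment over all 11354 genes and a threshold of 0.05. The procedure was tested on simulated data. Of 26 comparisons, 3 were added after the data were seen. The members and the gene lists were chosen with earlier results of these data known. All members were named; of the 9 lists of other pathway genes (90 genes), up to 3 per list with the largest called change in wild-type (LPS against vehicle, or LPS + Dex against LPS) could be named, short lists whole, and any other gene named was chosen after its values were seen. Same-numbered AMPKa1-/- libraries were taken as pairs where every correlation of their deviations passed 0.1 (LPS, LPS + Dex and Dex comparisons, 0.12 to 0.40); wild-type numbers did not meet this.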

Additional observations from a re-analysis of the deposited data

How the results depend on the processing

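The numbers of members called with LPS against vehicle and LPS + Dex against LPS stayed within 8 to 9 and at 8 over all libraries left out in turn, and no log2 change that had been called reversed under any setting. In wild-type, LPS + Dex against vehicle gave 0 members with quantile normalization and 2 with the replicate block, also with the block and AMPKa1-/- DAMPs + Dex replicate 1 left out or the libraries centred (main 1). Dex against vehicle gave 2 without a filter on low values (main 4). DAMPs against vehicle gave 0 with a pseudocount of 0.1, without a filter, with centring or with only the groups compared, 2 with quantile normalization, 4 with the replicate block, 4 with the block without the library named above and 2 with block and centring (main 1). DAMPs + Dex against DAMPs gave 3 with only the groups compared (main 6), and the difference of the Dex effects with and without LPS gave 3 with centring and 4 with block and centring (main 7). In AMPKa1-/- libraries, LPS + Dex against vehicle gave 1 with centring and 1 with quantile normalization (main 2), and DAMPs against vehicle 1 without a filter and 6 with the replicate block, with or without the left-out library (main 3). AMPKa1-/- against wild-type with Dex gave 0 without a filter and 3 with only the groups compared (main 1). The causes were not tested. Leaving out 1 library gave, in wild-type, 1 to 5 members with Dex, 0 to 3 with DAMPs, 2 to 7 with DAMPs + Dex, 3 to 8 for the difference and 5 to 8 for LPS against DAMPs. In AMPKa1-/- libraries it gave 2 to 3 for LPS + Dex against vehicle, 1 to 4 with DAMPs and 5 to 7 with DAMPs + Dex, and between genotypes with Dex 0 to 3. With the replicate block, H2-K1 also passed in wild-type LPS against vehicle (1.36), and H2-K1 (-0.81) and H2-D1 (-0.87) in LPS + Dex against LPS, although over all genes the wild-type numbers did not meet the pairing check. Where AMPKa1-/- numbers paired, the block changed no member's call besides those of the heavy chains, and among the other pathway genes those of H2-Q7 (LPS), Calr and Blmh (LPS + Dex against LPS), and Psmb1, Psmg3 and Blmh (Dex). How depth limits these values was not tested; Nlrc5 had the lowest levels of the members.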
